A study of Macaca mulatta with 8 samples.

Results

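Promoter regions of the rhesus macaque genome that were called open at E80 and at no other stage are described here. They come from 1 table of merged ATAC-seq regions, an assay in which Tn5 transposase cuts accessible DNA. A region belongs to the set when it lies on an autosome, holds an E80 peak and none of E50, E60 or E85, and comes within 1000 bp of an annotated transcript start of any coding or lncRNA gene. Members were thus selected on the authors' peak calls per stage, which are used below as a description and not as a finding. The set numbered 488 of 16029 autosomal promoter regions called at any stage (3.04%). The whole table had 72358 regions with a stage peak. A further 13 such regions lay on the X chromosome and 15 on the Y chromosome or unplaced sequences, and these are not counted.

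The cells were primary cells of rhesus cortex, taken at post-conceptional days 50, 60, 80 and 85, and called E50, E60, E80 and E85 here. The labels give no genotype or agent that sets the stages apart. Cryopreserved tissue was dissociated and plated in a medium enriching for progenitors, with FGF2, EGF and BDNF, and with the CEPT survival cocktail at plating. Each stage had 1 culture and 2 technical libraries from it, so differences between stages rest on single cultures, and stage and culture cannot be told apart. Intervals below cover counting error over regions of these peak sets alone. The depth behind each call is unknown here.

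Most vertebrate promoters of widely expressed genes lie in CpG islands, stretches rich in GC and CpG that stay accessible in most cells, and many genes have further starts that are used in few cell types. AP-1, a dimer of FOS and JUN family proteins, binds the 7 bases TGACTCA, which read TGAGTCA on the other strand. It is best known from growth factor, stress and wound responses, and it opens enhancers in many cell types. Enhancers often lie close to annotated starts without covering them, so a region near a start is not always a core promoter.

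A promoter region was called at E80 for 52.8% of all autosomal genes. All 15 radial glia genes of a list with PAX6, SOX2 and HES1 had one, as did 10 of 10 outer radial glia genes, 12 of 14 neuron genes and 12 of 14 astrocyte genes. Several lists that mark no cortical cell type were also mostly called, with 13 of 14 Hippo pathway genes, 23 of 26 integrin and matrix genes and 15 of 20 inflammatory genes. Fewer were called among keratin and epithelial junction genes (6 of 17), microglia genes (1 of 12) and endothelium genes (3 of 10). Of the mesenchyme and mural cell genes, 7 of 13 were called. An open promoter is not a measure of expression, so these calls describe the labelled tissue only loosely.

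The sequences below show an AP-1 match in 8 members. Within 150 bp of the region centre, AP-1 was found in more members than any other of the 23 motifs searched. The matches shown may lie anywhere in the region, and the GAP43 and PLEKHG4 regions shown had none within 150 bp of the centre. The members shown are the named ones whose match lay nearest to the start used for the region and whose window holds few exon bases. The start used is that of the gene closest to the region. Where a region covers several, it is the one closest to the centre, so another start of the gene can lie nearer to a match. Each line gives the match with its flanks, centred on the match in the Mmul_10 genome, 5′ to 3′ on the gene's strand, and capitals mark the AP-1 bases.
CELF2 (chr9:11963289-11963409, plus strand): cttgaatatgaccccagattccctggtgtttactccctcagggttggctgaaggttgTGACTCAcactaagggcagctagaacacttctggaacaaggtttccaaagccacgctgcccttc
AIM2 (chr1:91886996-91887116, plus strand): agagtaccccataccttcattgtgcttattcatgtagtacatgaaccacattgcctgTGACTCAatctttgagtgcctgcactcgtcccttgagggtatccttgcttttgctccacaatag
ASB5 (chr5:173591326-173591446, minus strand): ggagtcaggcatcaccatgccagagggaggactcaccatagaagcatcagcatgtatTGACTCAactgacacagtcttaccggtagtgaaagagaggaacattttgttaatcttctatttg
SEMA3B (chr2:106395299-106395419, plus strand): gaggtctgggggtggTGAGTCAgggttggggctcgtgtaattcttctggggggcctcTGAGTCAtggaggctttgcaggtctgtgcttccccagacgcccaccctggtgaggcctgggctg
GAP43 (chr2:160642482-160642602, minus strand): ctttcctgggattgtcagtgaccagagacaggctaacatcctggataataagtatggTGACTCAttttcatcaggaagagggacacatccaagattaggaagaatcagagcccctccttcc
DST (chr4:112705514-112705634, plus strand): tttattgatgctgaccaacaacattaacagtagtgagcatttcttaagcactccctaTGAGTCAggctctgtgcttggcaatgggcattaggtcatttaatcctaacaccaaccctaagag
PLEKHG4 (chr20:54463944-54464064, plus strand): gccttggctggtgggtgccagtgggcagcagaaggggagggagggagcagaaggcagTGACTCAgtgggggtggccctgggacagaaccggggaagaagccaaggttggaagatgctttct
PTPRM (chr18:68998330-68998450, plus strand): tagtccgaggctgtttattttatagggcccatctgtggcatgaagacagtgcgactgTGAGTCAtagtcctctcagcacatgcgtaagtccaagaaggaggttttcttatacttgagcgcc
The start used is the 5′ end of the gene in PLEKHG4 alone, and in the others shown it is an internal start. The match lay 91 bp upstream of such an internal start in CELF2, which encodes an RNA-binding splicing regulator. In PTPRM, a receptor-type phosphatase gene, it lay 712 bp upstream of an internal start. SEMA3B, a semaphorin gene of axon guidance, holds 2 matches in the window shown.

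Other members covered a start and had no AP-1 match. Of the widest named ones, 4 whose windows hold few exon bases are shown by the bases that lead up to and end at the start, on the gene's strand, with capitals marking CpG dinucleotides.
MEIS3 (chr19:47445254-47445374, minus strand): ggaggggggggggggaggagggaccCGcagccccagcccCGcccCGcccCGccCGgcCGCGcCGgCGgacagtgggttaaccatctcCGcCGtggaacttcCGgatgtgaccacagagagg
ANO5 (chr14:43372391-43372511, minus strand): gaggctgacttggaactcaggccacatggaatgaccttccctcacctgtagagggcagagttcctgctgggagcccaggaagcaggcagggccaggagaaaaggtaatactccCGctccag
ADGRG3 (chr20:44907571-44907691, plus strand): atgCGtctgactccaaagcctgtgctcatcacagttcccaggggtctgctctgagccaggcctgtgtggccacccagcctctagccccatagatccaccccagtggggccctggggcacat
MRM2 (chr3:35333397-35333517, minus strand): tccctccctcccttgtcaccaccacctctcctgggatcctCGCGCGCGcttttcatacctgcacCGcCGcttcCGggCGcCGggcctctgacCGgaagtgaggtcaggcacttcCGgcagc
MEIS3 and MRM2 have 12 and 11 CpG in these windows, while ANO5 and ADGRG3 have 1 each. These windows end at the start and need not resemble the region centre. Within 150 bp of the centre the ratio of observed to expected CpG was 0.253 in MEIS3 and 0.759 in MRM2. In ANO5 it was 0.838, and in ADGRG3 0.158. MEIS3 encodes a TALE homeobox factor, MRM2 a mitochondrial rRNA methyltransferase, ANO5 an anoctamin and ADGRG3 an adhesion G protein-coupled receptor.

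E80-alone promoters were short, and most lay beside a start and did not cover it. Their median width was 291 bp (quartiles 230 and 447), against 435.5 bp for the 1166 promoters called at E60 alone (7.27% of the 16029) and 1277 bp for the 8347 called at all 4 stages. Of the 488, 395 were at most 500 bp wide, 487 held a single E80 peak, and 23 were over 1000 bp. The widest, 33538 bp at chr3:43041882-43075419, holds 4 peaks lifted from other sets, whose codes the labels leave undefined, and such peaks can set a region's bounds. A start base was covered in 143 of 488 (29.3%, exact 95% interval 25.3 to 33.6), against 529 of 1166 E60-alone promoters (45.4%, interval 42.5 to 48.3). The difference was -16.1 percentage points (Newcombe 95% interval -20.9 to -11.01). Among regions without a lifted peak it was smaller, -8.97 points (interval -15.0 to -2.70). Promoters called at all 4 stages covered a start in 92.6%.

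Width enters that measure, so distance from the centre was taken as well, after the widths had been seen. A start lay within 150 bp of the centre in 23.8% of E80-alone promoters, 31.1% of E60-alone promoters and 52.2% of promoters of all 4 stages. The E80-alone minus E60-alone difference on this measure was -7.36 points (interval -11.8 to -2.62). The median distance from centre to nearest start was 529 bp, against 342 bp at E60 alone and 140.5 bp at all 4 stages. Centres fell in an intron of the nearest gene in 202 members (41.4%), upstream of the gene in 24.8%, in a UTR exon in 98, in a lncRNA exon in 42 and in a coding exon in 22. Intronic centres made up 30.7% of E60-alone promoters and 23.3% of those of all 4 stages.

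**Figure D1:**
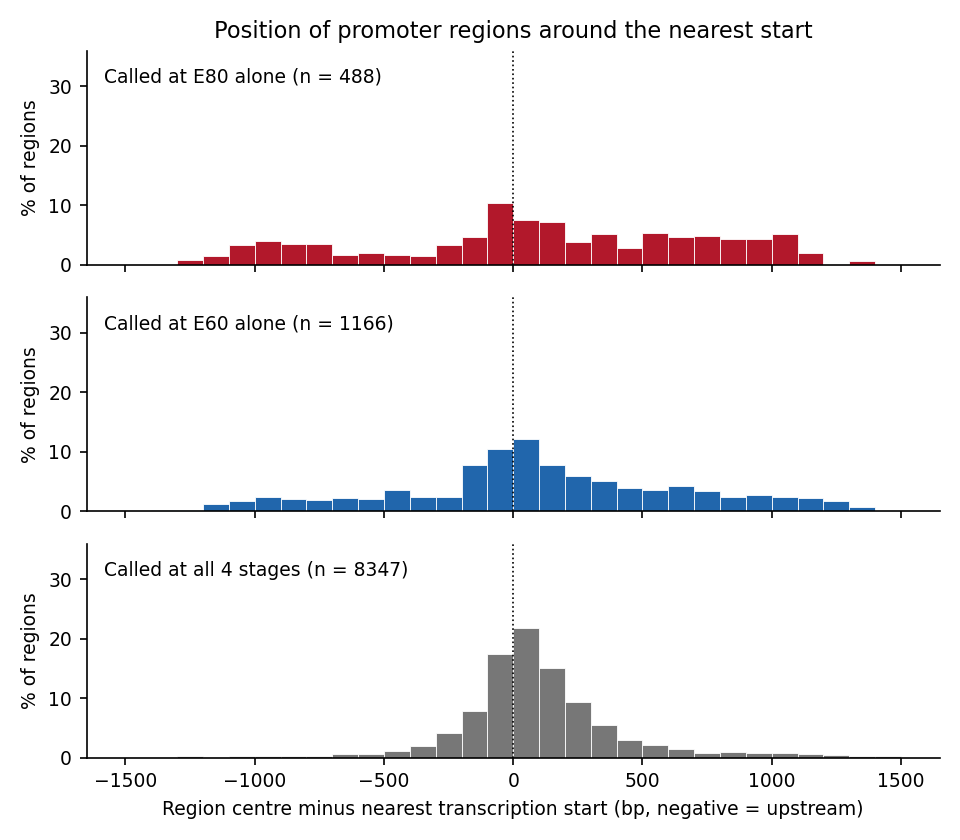
Share of promoter regions (y axis, percent) by the distance of the region centre from the nearest transcription start (x axis, bp in bins of 100, upstream negative), for regions called at E80 alone, at E60 alone and at all 4 stages. Regions of all 4 stages crowd close to the start, while E80-alone regions spread over the whole window. Centres beyond the 1500 bp drawn number 1 at E80 alone, 7 at E60 alone and 63 at all 4 stages.

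The 1000 bp limit cut through a continuous spread of distances. The outermost members lay 994 bp (TNS3), 997 bp (SLC7A7) and 1000 bp (a lncRNA) from a start, and the nearest E80-alone regions left out lay 1001 bp and 1003 bp from lncRNA starts and 1004 bp from USP38. There were 38 E80-alone regions in the last 100 bp inside the limit and 37 in the first 100 bp outside it.

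Some members lay close to a region that held a peak of another stage. A region of another stage lay within 1000 bp of 164 of 488 E80-alone promoters (33.6%), and the median gap was 3813.5 bp. For E60-alone promoters the share was 29.5% of 1166, and the difference of 4.10 points had an interval that held 0 (-0.752 to 9.11). Among distal regions called at E80 alone it was 9.75% of 8840. Members lie near starts by rule, where regions of other stages also lie, so nothing is read from that.

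Most E80-alone promoters were not CpG islands in sequence. Within 150 bp of the region centre the median GC content was 52.3% (quartiles 46.2 and 60.5), against 62.8% in E60-alone promoters and 68.1% in promoters of all 4 stages. The E80-alone minus E60-alone difference was -10.5 points (interval -12.0 to -9.17). The median ratio of observed to expected CpG was 0.273, against 0.616 at E60 alone and 0.840 at all 4 stages, with a difference from E60 alone of -0.343 (interval -0.382 to -0.292). A GC content of at least 50% together with a CpG ratio of at least 0.6 was found in 93 members (19.1%), in 49.6% of E60-alone promoters and in 83.6% of promoters of all 4 stages. The members were still richer in both than distal E80-alone regions, whose medians were 47.2% GC and 0.194 (differences 5.15 points, interval 3.94 to 5.98, and 0.0786, interval 0.0563 to 0.103).

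The set was mixed in this respect. The 143 members that covered a start had a median GC of 57.8%, a CpG ratio of 0.425 and a width of 422 bp. For the 345 that did not, the medians were 50.8%, 0.242 and 268 bp. Of the covering members 54 were rich in both GC and CpG (37.8%, exact interval 29.8 to 46.2), against 39 of the others (11.3%, 8.16 to 15.1). VAX1, a homeobox gene of the ventral forebrain, had a ratio of 1.148 over its covered start, whereas 19 members had no CpG at all in the window, among them the region near GJA1.

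**Figure D2:**
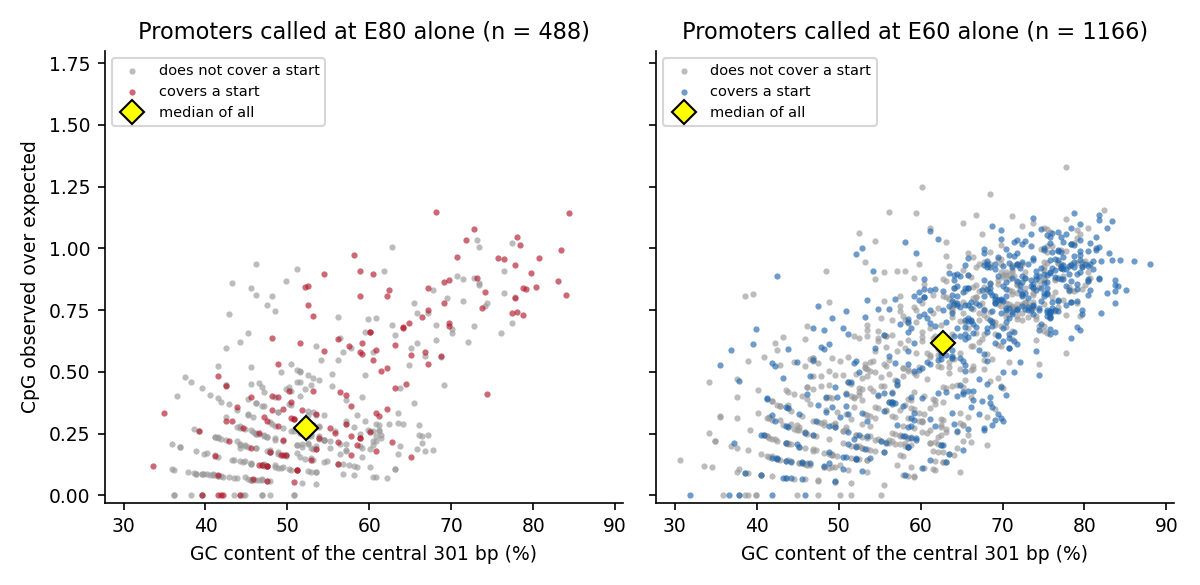
CpG observed over expected (y axis) against GC content in percent (x axis) within 150 bp of the centre, 1 point per promoter region, for regions called at E80 alone (left) and at E60 alone (right); coloured points cover a start, grey points do not, and diamonds mark medians. The E80-alone median sits at 52.3% and 0.273, and the E60-alone median at 62.8% and 0.616.

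AP-1 was more frequent in E80-alone promoters than in E60-alone ones. It lay within 150 bp of the centre in 150 of 488 (30.7%, exact interval 26.7 to 35.04), against 61 of 1166 E60-alone promoters (5.23%, 4.03 to 6.67). The difference was 25.5 points (Newcombe interval 21.3 to 29.9), close in size to that of the KLF/SP motif GGGCGG in the other direction (-24.7 points, interval -29.2 to -19.8). The motif was in 2.66% of promoters of all 4 stages, in 5.57% of all promoter regions, and in 3.64% of windows of the same length at the 56072 annotated autosomal starts. Distal E80-alone regions held it in 43.7%, which is 13.0 points more than the E80-alone promoters (difference -13.0, interval -17.0 to -8.62). A match describes letters and does not show that a factor was bound.

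Since GC content differs between the sets, the shares were also taken within bands of it. Under 45% GC, 44 of 96 E80-alone promoters (45.8%) and 16 of 125 E60-alone promoters (12.8%) held AP-1. Between 45% and 55% the shares were 37.0% and 8.73%, between 55% and 65% they were 28 of 112 and 18 of 302 (5.96%), and from 65% up they were 5.00% and 1.37%. The difference was above 0 in every band, and was smallest in the last (3.63 points, interval 0.268 to 10.8). Members that covered a start held the motif less often (27 of 143, 18.9%) than those that did not (123 of 345, 35.7%), and among E60-alone promoters these shares were 3.02% and 7.06%.

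The reversed letters ACTCAGT served as a control with the same base composition. They were in 8.81% of E80-alone and 2.66% of E60-alone promoters, a difference of 6.15 points (interval 3.69 to 9.10). The control can overlap a true match, as in TGACTCAGT, and when overlapping ones were left out it was still in 7.17% and 2.32%. Under 65% GC the AP-1 difference was larger than that of the control in each band, 33.0 against 9.86 points, 28.3 against 6.82 and 19.0 against -1.86, from the lowest band up. From 65% GC up it was not: the control was in 6.25% of E80-alone and 0.980% of E60-alone promoters, a difference of 5.27 points against 3.63 for AP-1.

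AP-1 matches were gathered at the centre of the regions. Within 100 bp of the centre there were 151 matches in the E80-alone promoters, or 15.5 per 100 regions and 100 bp, against 1.54 between 300 and 500 bp away. In E60-alone promoters the same densities were 2.10 and 1.07, and in promoters of all 4 stages 1.03 and 1.07. The control had densities of 3.69 near the centre and 1.33 farther out in the E80-alone promoters. The gathering was not particular to promoters. In distal E80-alone regions the AP-1 densities were 22.3 near the centre and 1.99 farther out, and those of the control 3.78 and 1.67.

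**Figure D3:**
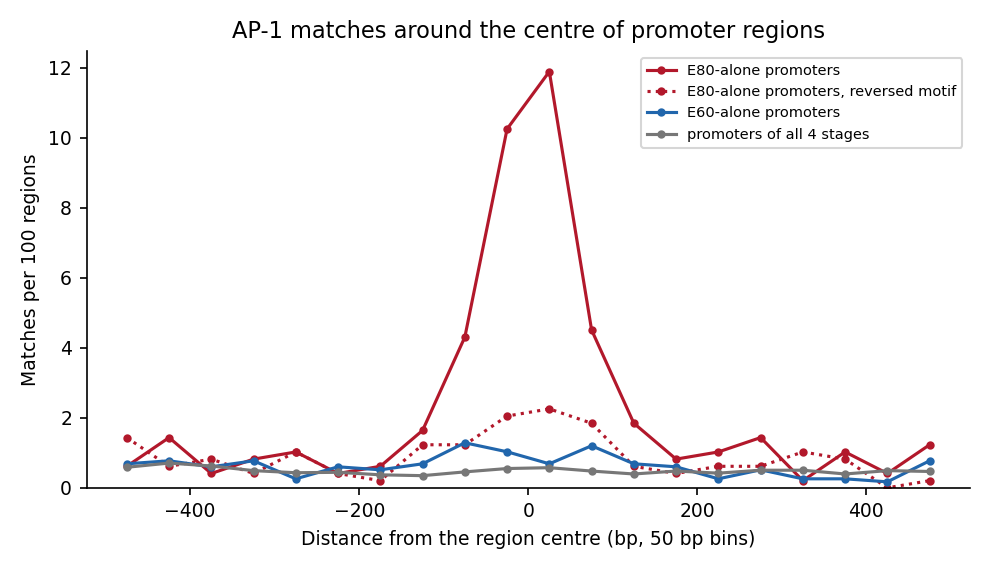
AP-1 matches per 100 regions (y axis) by distance from the region centre (x axis, 50 bp bins) in promoters called at E80 alone, at E60 alone and at all 4 stages, with the reversed control for E80 alone as a dotted line. The E80-alone line reaches 11.9 in the bin next to the centre, where the E60-alone line is at 0.686.

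Of the other 22 motifs, 3 were more frequent in E80-alone than in E60-alone promoters, 2 were less frequent, and 17 had intervals of the difference that held 0. The intervals were not adjusted for the number of motifs. TATAAA, the TATA box, was in 11.3% of E80-alone and 5.83% of E60-alone promoters (difference 5.44, interval 2.52 to 8.78), and in 10.8% of windows at annotated starts. The STAT motif TTCNNNGAA was in 10.0% and 5.40% (4.64, 1.87 to 7.84), and ACATTCC, bound by the TEAD factors of the Hippo pathway, in 6.15% and 2.66% (3.49, 1.38 to 6.10). GGGCGG, bound by KLF and SP factors, was in 24.0% and 48.6% (-24.7, -29.2 to -19.8). The E-box CAGCTG, bound by proneural factors, was in 18.6% and 25.3% (-6.65, -10.8 to -2.24). The E-boxes CAGATG, of the NEUROD type, and, of the USF and MYC type, CACGTG were among the 17. The reversed AP-1 control differed by 6.15 points (interval 3.69 to 9.10), more than the TATA, STAT or TEAD motif, so nothing is read from those 3. GC content moves with several of these motifs, and its part in these 5 differences was not tested.

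**Figure D4:**
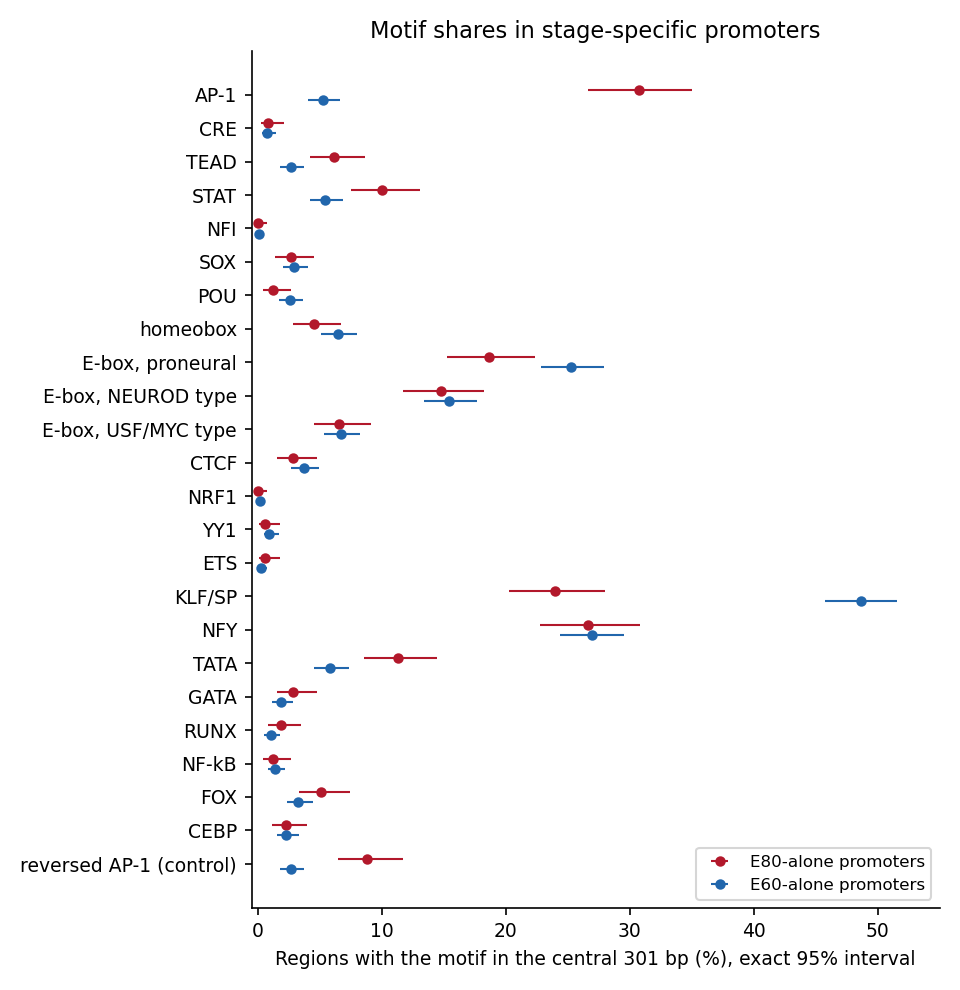
Share of regions with each motif within 150 bp of the centre (x axis, percent, with exact 95% intervals) for promoters called at E80 alone and at E60 alone. AP-1 stands at 30.7% and 5.23%, and KLF/SP at 24.0% and 48.6%.

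In promoters of other stage patterns the AP-1 share was 12.8% in the 39 promoters called at E80 and E85 alone (exact interval 4.30 to 27.4), 10.2% in the 3269 called at E60 and E80 alone (9.17 to 11.3) and 4.72% in the 106 called at E85 alone (1.55 to 10.7). Between E80 alone and E85 alone, the cultures 5 days apart, the intervals do not meet, whereas that of E80 with E85 overlaps that of E80 alone.

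**Figure D5:**
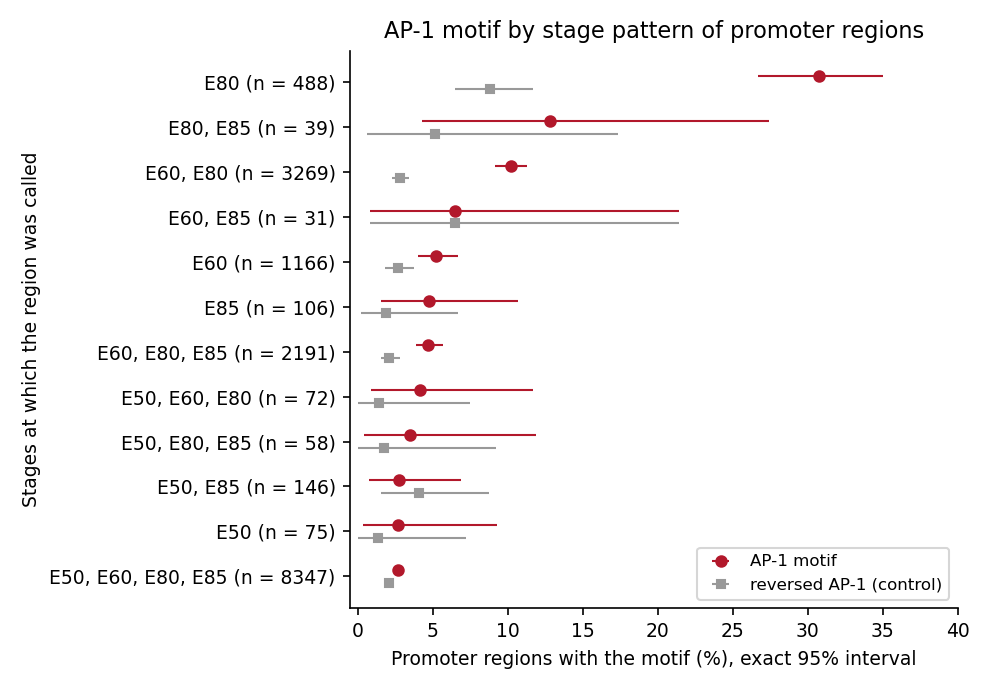
Share of promoter regions with the AP-1 motif and with its reversed control (x axis, percent, exact 95% intervals) by the stages at which the region was called (y axis), for patterns of at least 30 regions. E80 alone is highest at 30.7%, and the 8347 regions of all 4 stages are at 2.66%.

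Genes near the E80-alone promoters numbered 509 of 27631 autosomal genes (1.84%), against 56.1% with a promoter region of any stage. Of the 509, 395 are protein-coding and 114 lncRNA genes. Of these 155 have only a LOC symbol. A lncRNA start was the nearest one for 101 of 488 members (20.7%), against 163 of 1166 E60-alone promoters (difference 6.72 points, interval 2.75 to 10.97). In 275 of the 509 genes (54.0%) another promoter region was called at another stage, and for 165 genes one was called at all 4 stages. The share among genes of E60-alone promoters was 47.3% of 1162, a difference of 6.70 points (interval 1.49 to 11.8). The other 234 genes, 145 protein-coding and 89 lncRNA, had no promoter region outside E80. Regions near such genes covered a start in 39.2% of 227, those near genes with a further promoter in 19.9% of 266, and their AP-1 shares were 30.4% (interval 24.5 to 36.8) and 31.2% (25.7 to 37.1). A few regions enter both counts, through different genes.

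Gene lists of cortical cell types and pathways touched the set in few places. Of 232 autosomal list genes, 9 had an E80-alone promoter (3.88%, exact interval 1.79 to 7.24), against 1.84% of all autosomal genes, so the interval holds the background. The same lists held 23 genes with an E60-alone promoter (9.91%, interval 6.39 to 14.5), against 4.21% of all genes. For neurons the counts were 1 of 14 at E80 alone and 4 at E60 alone, and for deep-layer neurons 0 of 9 and 4. AP-1 subunits had 2 of 14 (interval 1.78% to 42.8%) and 0, and inflammatory and cytokine genes 2 of 20 (1.23% to 31.7%) and 0. Both of these intervals hold the 1.84% of all genes. With 1.84% of all genes called, a count of 0 in lists of this size is near the background. No E80-alone promoter belonged to the radial glia, outer radial glia, intermediate progenitor, deep-layer, upper-layer, microglia, endothelium, mesenchyme, Hippo or integrin and matrix lists.

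Among the AP-1 subunits, FOSL2, which encodes the FOS-related protein FRA2, had a promoter also called at the other 3 stages and a second, E80-alone region of 672 bp inside the gene, 282 bp downstream of an internal start. BATF2, a basic leucine zipper gene, likewise had promoter calls at the other stages and an E80-alone region of 491 bp. Neither E80-alone region held AP-1 letters. Of the 14 listed subunits, 12 had a promoter called at all 4 stages, against 35% of all autosomal genes.

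IL6, a cytokine of acute inflammation, had 2 E80-alone regions at its start. The region of 222 bp at chr3:92386084-92386305 covered the start, and the one of 241 bp at chr3:92386413-92386653 lay 154 bp upstream. A further promoter region of IL6 was called at E60 and E80, and none at E50 or E85. IL1A, the gene of interleukin-1 alpha, had a single region of 181 bp and no promoter call at another stage. The region lay 611 bp upstream of an internal start and held 2 AP-1 matches. SFN, which encodes an epithelial 14-3-3 protein, also had its sole promoter call at E80, 727 bp upstream of the start.

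GJA1, which encodes the gap junction protein connexin 43 of radial glia and astrocytes, had a promoter called at every stage and an E80-alone region 905 bp upstream of an internal start. GAP43, a growth cone protein gene, also had a promoter called at every stage. Its 2 E80-alone regions of 461 and 979 bp lay in the gene, 1 of them over an internal start. The one of 979 bp lay 281 bp from a region of another stage. The GAP43 locus held 3 further distal E80-alone regions, against none called at E60 alone. DLX6, a homeobox gene of ventral forebrain interneurons, had a GC-rich E80-alone region of 612 bp that ended 218 bp from a region of another stage. NKX2-2, a homeobox gene of the oligodendrocyte lineage, was covered at its 5′ end and at an internal start by a region of 2050 bp (chr10:44990273-44992322) with a CpG ratio of 0.881, and had no promoter call at the other 3 stages. Its only AP-1 match lay at the edge of the region, 126 bp upstream of the 5′ end of the gene and 1039 bp from the internal start.

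The AP-1 matches of these list members are given as 29 bases centred on the match, on the gene's strand, with the match in capitals. They were singled out after the matches had been seen.
IL6 (chr3:92386212-92386240, minus strand): tgccaaagtgcTGAGTCActaataaaaga
GAP43 (chr2:160642528-160642556, minus strand): aataagtatggTGACTCAttttcatcagg
IL1A (chr13:15958764-15958792, minus strand): tcattggcgttTGAGTCAgcaaaggtatt
GJA1 (chr4:24945504-24945532, plus strand): atgaggccacaTGACTCAggccattataa
NKX2-2 (chr10:44990263-44990291, plus strand): ggccaatatttTGACTCAcgtcagtccgg
SFN (chr1:197904396-197904424, minus strand): agagagcagtcTGAGTCAggcaggaaagt
In IL6 the match lay 33 bp downstream of the start, and in GJA1 and SFN 992 and 1081 bp upstream of one.

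Families of genes with a shared symbol had few members too. Over all autosomal genes the shares were 1.84% at E80 alone and 4.21% at E60 alone, so the 2 counts of a family have unlike backgrounds. Potassium channel genes had 1 of 91 with an E80-alone promoter (1.10%, interval 0.0278 to 5.97) and 14 with an E60-alone one (15.4%, 8.67 to 24.5). Collagen genes had 0 of 41 and 6, HOX cluster genes 0 of 38 and 4, and zinc finger genes named ZNF 5 of 392 and 7. Solute carrier genes had 8 of 364 (2.20%), close to the 1.84% of all genes, and ribosomal protein genes 2 of 89. For 0 of 38 genes the interval still reached 9.25%.

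The widest named regions were mostly sole promoters. MEIS3 (4345 bp), NKX2-2 (2050 bp), ANO5 (1765 bp), ADGRG3 (1612 bp) and HCFC1R1 (1569 bp) had no promoter call at another stage. The HCFC1R1 region still lay 399 bp from a region of another stage. Regions called at E50, E60 and E85 lay in the HCFC1R1 gene body or the 5000 bp upstream. TNFRSF10A, a TRAIL death receptor gene, had 1443 bp. A single region of 1382 bp lay at the starts of both MRM2 and NUDT1, whose enzyme clears oxidised nucleotides. DLG2, the gene of the postsynaptic scaffold PSD-93, differed from these. Its E80-alone region of 1461 bp covered an internal start, at chr14:78089080-78090540, and promoters of the gene were called at every stage. Wide regions often hold lifted peaks: 3 in NKX2-2 and in ANO5, 5 in DLG2, but 0 in HCFC1R1.

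AP-1 matches over the whole region were found in 159 members, and 22 had 2 or more. PLEKHG4, a guanine nucleotide exchange factor gene, had 3 in 1053 bp and no promoter called at another stage. ETS1, AIM2, PISD, CEP68, ASB5, SEMA3B and PTPRM had 2 each. ETS1 encodes a transcription factor, and AIM2 a sensor of cytosolic DNA. The AIM2 region covered an internal start, while those of ETS1 and CEP68 lay 685 and 864 bp downstream of a start. Members with AP-1 near the centre were narrower (median 252 bp) than those without (324.5 bp), none was over 651 bp, and their median GC was 47.8% against 53.8%.

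Loci of the genes, taken as the gene body with 5000 bp upstream, held other stage-specific regions. At least 1 distal E80-alone region lay in 23.8% of 509 loci (exact interval 20.1 to 27.7), and a distal E60-alone region in 19.4% (16.1 to 23.2). For genes with an E60-alone promoter these shares were 19.9% and 27.4%, and for all genes with a promoter region 18.6% and 18.9%. Of the distal regions of either kind, 52.8% were E80-alone at loci with an E80-alone promoter, 38.6% at loci with an E60-alone promoter and 46.0% at all. Loci differ in size, so only the 2 kinds within a set are compared here, as a description.

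DLG2 had the most, with 11 distal E80-alone and 5 distal E60-alone regions. PSD3 had 7 and 7, CHST11, which encodes a chondroitin sulfotransferase, 6 and 11, and CELF2 6 and 7. HIVEP3, DST and PTPRM had 5 each against 3, 2 and 3, and TNS3, a gene of the focal adhesion protein tensin 3, had 4 and 3. DST encodes dystonin, a linker of the cytoskeleton. In 91 of the 509 loci E80-alone distal regions outnumbered E60-alone ones, in 63 the reverse held, and 355 had equal numbers, including 0 of both. The same balance was not taken over other genes, so nothing is read from these counts.

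Some genes held more than 1 member, which therefore share a target. PDE4A, a phosphodiesterase gene that limits cAMP, had 3 E80-alone promoter regions (229, 376 and 330 bp), and 20 genes in all had 2 or more, among them IL6, GAP43, TWIST2, AHCYL1 and AHCYL2. The 2 regions of TWIST2, a basic helix-loop-helix gene of mesenchyme, were CpG-rich (ratios 0.820 and 0.865), and the gene had no promoter call at another stage. In all, 41 members lay near starts of 2 or more genes.

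Further members are named here for their known roles, after their values had been seen, and no count rests on them. SIX3, a homeobox gene of the anterior forebrain, had a region of 632 bp over its start and no promoter call at another stage. NR2F1, a nuclear receptor gene of cortical area patterning, had a region of 516 bp inside the gene beside promoters called at E60 and E85. WNT5A had its sole promoter region at E80, 336 bp wide and 413 bp from a region of another stage, and WNT7B had a region of 387 bp with an AP-1 match beside a promoter called at E60. Both encode WNT ligands. ERBB4, a neuregulin receptor gene, was covered at a start near its 5′ end by 1253 bp that lay 92537 bp from the nearest region of another stage. ROBO2, a receptor of axon guidance, had 302 bp with AP-1 centred on an internal start, and its promoters were also called at E50 and E85 but not at E60.

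CASP8, the gene of an initiator caspase of apoptosis, and MLKL, the gene of the executor of necroptosis, had promoter calls at E80 alone, in regions of 268 and 495 bp. The CASP8 region did not cover the start and lay 911 bp upstream of it. CFLAR, which encodes an inhibitor of caspase 8, had an E80-alone region of 889 bp over an internal start beside promoter calls at E60 and E85 but not at E50. CCR7 and C3AR1, receptor genes of immune cells, had sole E80 promoter calls of 220 and 338 bp, each with AP-1. CIITA, the regulator of MHC class II genes, had one of 646 bp without it.

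Lifted peaks were the other readout in the table. They come as 4 coded sets with no definition in the labels. At least 1 lay in 169 of 488 E80-alone promoters (34.6%, exact interval 30.4 to 39.0), in 61.8% of E60-alone promoters (59.0 to 64.6) and in 96.9% of promoters of all 4 stages. The E80-alone minus E60-alone difference was -27.2 points (interval -32.1 to -22.0). In the largest of the 4 sets the shares were 31.4% (27.3 to 35.7) at E80 alone and 56.2% (53.3 to 59.05) at E60 alone. In the smallest they were 5.74% (3.85 to 8.19) and 9.43% (7.82 to 11.3), with intervals that overlap. Distal E80-alone regions had a lifted peak in 27.7%. Members with AP-1 near the centre held one in 24 of 150 (10.5% to 22.9%), and members without AP-1 in 145 of 338 (42.9%, 37.6% to 48.4%). E80-alone promoters were narrower than E60-alone ones, and the part of width in these shares was not tested.

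Over the chromosomes the share of promoter regions called at E80 alone ran from 4.89% on chromosome 12 (27 of 552, exact interval 3.25 to 7.04) to 1.97% on chromosome 15 (14 of 709, 1.08 to 3.29).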

How the data were processed

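Libraries were made by Omni-ATAC, 2 technical ones for the single culture of every stage (8 in all), as the labels' protocols describe. Tools listed in the submitters' processing notes are Bowtie2 2.5.1, cutadapt 4.4 and SAMtools 1.15, with rheMac10 as build. How peaks were called, at which threshold, with what Tn5 offset and from pooled or single libraries is not stated in those notes or labels. A single file was deposited by the authors, with 112696 merged regions and the names of the peaks in each, whose codes give the stage. Its 8 columns of values without names were not used, so no depth per library and no count test were available. The peaks numbered 19833 (E50), 61956 (E60), 60278 (E80) and 30701 (E85), and a region not called may have been open below the threshold. The stage names carry a tag of filtering that is not described.

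Starts were those of every annotated transcript of protein-coding or lncRNA genes in NCBI annotation release 103 of Mmul_10, the assembly rheMac10 names. No region ended beyond its sequence. Coordinates are 1-based. GC, CpG and 23 motifs were taken on either strand within 150 bp of the region centre. Beside those spelled out in the report, the letters were TGACGTCA for CRE. They were ACAATGG for SOX and ATGCAAAT for POU factors. Homeobox factors had TAATTA. YY1 had ATGGCGGC. ETS factors had CCGGAAGT. NFY had CCAAT. GATA factors had AGATAAG. RUNX factors had TGTGGTTT. FOX factors had TGTTTAC. CEBP had TTGCNTCA. Longer motifs of NFI, CTCF, NRF1 and NF-kB are given by name. Shares have exact Clopper-Pearson and differences Newcombe 95% intervals. Differences of medians combine order-statistic intervals in the same way. The scan and the assignment to starts were checked on simulated data.

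Members, lists, motifs and tests were chosen with earlier results of these data known. Named genes were list members, the 8 widest regions, the 8 with most AP-1 matches, the 8 loci with most distal E80-alone regions and the 8 widest sole promoters. Windows printed at a start end there, and windows with over 30 exon bases were left out, to keep UTR sequence out. Sequences were read with pysam 0.24.0 and intervals computed with SciPy 1.17.1 in Python 3.11.15, with pandas 2.3.3 for tables and matplotlib 3.10.9 for plots.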

Additional observations from a re-analysis of the deposited data

How the results depend on the processing

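No paired analysis was possible because the calls are per stage and the columns carry no replicate number. Leaving out a library was not possible for the same reason. The E80-alone minus E60-alone differences in GC content, AP-1, covered starts and lifted peaks kept their direction and an interval without 0 under each alternative run. AP-1 ranged from 17.8 to 32.8 points, GC from -12.6 to -8.64, covered starts from -19.6 to -7.36 (the last with the centre-based measure, chosen after seeing the data) and lifted peaks from -29.1 to -24.4. The difference in genes with a further promoter was 3.59 points with a window of 500 bp, and its interval then held 0. The share of promoter regions called at E80 alone was 2.03% with 500 bp, 4.49% with 2000 bp, 2.34% with the 5-prime end of the gene alone, 2.64% with protein-coding genes alone, 16.8% in regions without a lifted peak, 6.21% in regions of at most 1000 bp and 2.57% in regions over 1000 bp from another stage, and these settings change which regions are counted. List genes with an E80-alone promoter numbered 14 with 2000 bp, 5 with the 5-prime end alone and 4 without lifted peaks, against 9. The count tests planned for named columns of counts were not run. Without depth per library, a missing call cannot be told from low coverage.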
